A study of Mus musculus with 2 samples.

Results

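This account describes REV-ERBα binding around Il7r and Il2ra, the genes of the interleukin-7 and interleukin-2 receptor alpha chains, in mouse T helper 17 (Th17) cells. The members are the listed ChIP-seq peaks whose midpoints lay in 2 windows of the mm9 genome, each holding a gene and its upstream flank: chromosome 15 from 9420000 to 9530000 for Il7r and chromosome 2 from 11500000 to 11640000 for Il2ra. The Il7r window held 8 peaks and the Il2ra window 3, together 11 of the 8884 peaks in the authors' list. The members were thus selected on the ChIP and input tags that put a peak into the list and on its position, in windows chosen by an earlier reading of the same list, so the numbers of peaks and tags are descriptions and carry no test. The series holds 1 ChIP sample made with an antibody to REV-ERBα and 1 sample of input DNA, both from wild-type Th17 cells in primary culture. The labels do not state the strain, the number of animals or any treatment beyond the culture. The files hold no expression, so the Th17 label was not checked against marker genes. The ChIP library had 6390234 tags, nothing was replicated, and all intervals below are 95% intervals for counting error only.

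REV-ERBα belongs to the nuclear receptors and to the circadian clock. It silences genes through co-repressors and can occupy the same DNA elements as the ROR receptors, among them RORγt, which directs the Th17 programme. The alpha chain encoded by Il7r (CD127) pairs with the common gamma chain to receive interleukin-7, a survival signal for resting and memory T cells. The alpha chain encoded by Il2ra (CD25) raises the affinity of the interleukin-2 receptor and is induced when T cells are activated. Both receptors signal through JAK1 and JAK3 to STAT5, and interleukin-2 signalling through STAT5 is known to restrain Th17 differentiation.

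The mm9 sequence under the peaks was not used here. The promoters, which could be read, are shown because the REV-ERB element can be looked for in them. They come from RefSeq on assembly GRCm38.p6, a different build from the peaks, so that their positions cannot be set against peak coordinates. The 250 bases before each transcription start are printed 5′ to 3′ on the strand of the gene. Il7r lies on the minus strand of chromosome 15 and Il2ra on the plus strand of chromosome 2.
Il7r promoter: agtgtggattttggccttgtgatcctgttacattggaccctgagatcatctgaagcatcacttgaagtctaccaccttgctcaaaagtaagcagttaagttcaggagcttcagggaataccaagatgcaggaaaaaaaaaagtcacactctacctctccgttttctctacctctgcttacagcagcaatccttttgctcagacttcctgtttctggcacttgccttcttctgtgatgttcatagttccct
Il2ra promoter: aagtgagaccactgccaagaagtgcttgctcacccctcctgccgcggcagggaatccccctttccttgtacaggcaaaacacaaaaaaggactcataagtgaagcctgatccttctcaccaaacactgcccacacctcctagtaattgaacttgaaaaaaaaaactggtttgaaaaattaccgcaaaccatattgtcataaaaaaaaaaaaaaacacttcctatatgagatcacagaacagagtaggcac
The half-site AGGTCA was searched on both strands from 250 bases before to 50 after the start, and neither promoter held it, so no letter stands in capitals. Over 32851 promoters of the same length, 16.3% held the half-site. The half-site with AANT directly before it, a form of the monomeric REV-ERB and ROR element, was in 0.219% of them. Other forms of that element were not searched. A pair of half-sites in 1 direction with 2 bases between them was in 3 promoters, and Il7r and Il2ra had neither. Of 11 other genes of common gamma chain receptors and their signalling, 10 matched the table. The half-site was in a promoter of 3 of these, where 4900 of all 27025 genes had it in at least 1 promoter. The 3 were Il21r, the interleukin-21 receptor, and Stat5a and Stat5b, the transcription factors downstream of the receptors. Stat5b had it in 1 of its 2 promoters. Il2rg, Il4ra, Il9r, Il15ra, Crlf2, Jak1 and Jak3 had none, none of the 10 had the longer elements, and Il2rb was not matched. A match or its absence in these letters is a description of the window and says nothing about binding.

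Around Il7r, the 8 peaks fell into a group of 3 and a group of 5. Il7r is read towards lower coordinates, so its upstream flank is the high end of the window. The peaks are numbered from 1 to 8 by rising coordinate, from the gene side of the window towards the upstream edge. Peaks 1 to 3 spanned 6.52 kb from 9457669 to 9464187 and held 55 tags together. Peaks 4 to 8 spanned 24.1 kb from 9485664 to 9509737 and held 119 tags. The 2 groups were separated by 21.8 kb between the midpoints of peaks 3 and 4. The start of Il7r in mm9 was not used here, so positions are given from the upstream edge of the window, and whether a peak covers the promoter was not determined. In the order of genes in GRCm38.p6, the next protein-coding gene on the upstream side is Spef2, a gene of the sperm flagellum, and on the other side Capsl. Peaks were assigned to Il7r by the window alone.

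The group of 3 on the gene side was made of moderate peaks. Peak 1, at 9457669 to 9457975 and 72.2 kb from the upstream edge, had 18 tags (interval 10.7 to 28.4), a caller score of 18 and 2.8 scaled input tags. Peak 2, at 9459248 to 9459554 and 70.6 kb from that edge, had 23 tags (14.6 to 34.5), a score of 24 and 1.9 scaled input tags. Peak 3, at 9463881 to 9464187 and 66.0 kb from the edge, had 14 tags (7.65 to 23.5), a score of 13 and 0.9 scaled input tags. Peak 3 was the weakest of the 11 and the only one below the median of the list, which was 15 tags with quartiles of 12 and 20. Peaks 1 and 2 had midpoints 1579 bp apart, and peaks 2 and 3 were 4633 bp apart. The intervals of the 3 tag counts overlapped.

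The group of 5, nearer the upstream edge, held the strongest Il7r peak, beside its closest neighbour. Peak 6, at 9499250 to 9499556 and 30.6 kb from the upstream edge, had 32 tags (interval 21.9 to 45.2), a score of 26 and 2.8 scaled input tags. Peak 7, at 9500173 to 9500479 and 29.7 kb from the edge, had 26 tags (17.0 to 38.1), a score of 24 and 2.8 scaled input tags. The midpoints of peaks 6 and 7 lay 923 bp apart, where the caller allowed no less than 612 bp. Of the 8864 distances between neighbouring peaks in the list, 102 (1.15%) were as short, and the median was 50.8 kb. These 2 peaks had the most tags in the Il7r window, and 95.1% of the list had fewer tags than peak 6.

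The other peaks of this group were nearly equal in tags. Peak 4, at 9485664 to 9485970 and 44.2 kb from the edge, had 20 tags (interval 12.2 to 30.9), a score of 17 and 1.9 scaled input tags. Peak 5, at 9492323 to 9492629 and 37.5 kb from the edge, had 21 tags (13.0 to 32.1), a score of 21 and 0.9 scaled input tags. Peak 8, at 9509431 to 9509737 and 20.4 kb from the edge, had 20 tags (12.2 to 30.9), a score of 17 and 2.8 scaled input tags. Successive midpoints in the group of 5 lay 6659, 6927, 923 and 9258 bp apart. All 8 tag intervals in the Il7r window overlapped. Overlap of intervals is not a test of a difference, and differences between peaks were not tested, so their order by strength is a description.

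**Figure D1:**
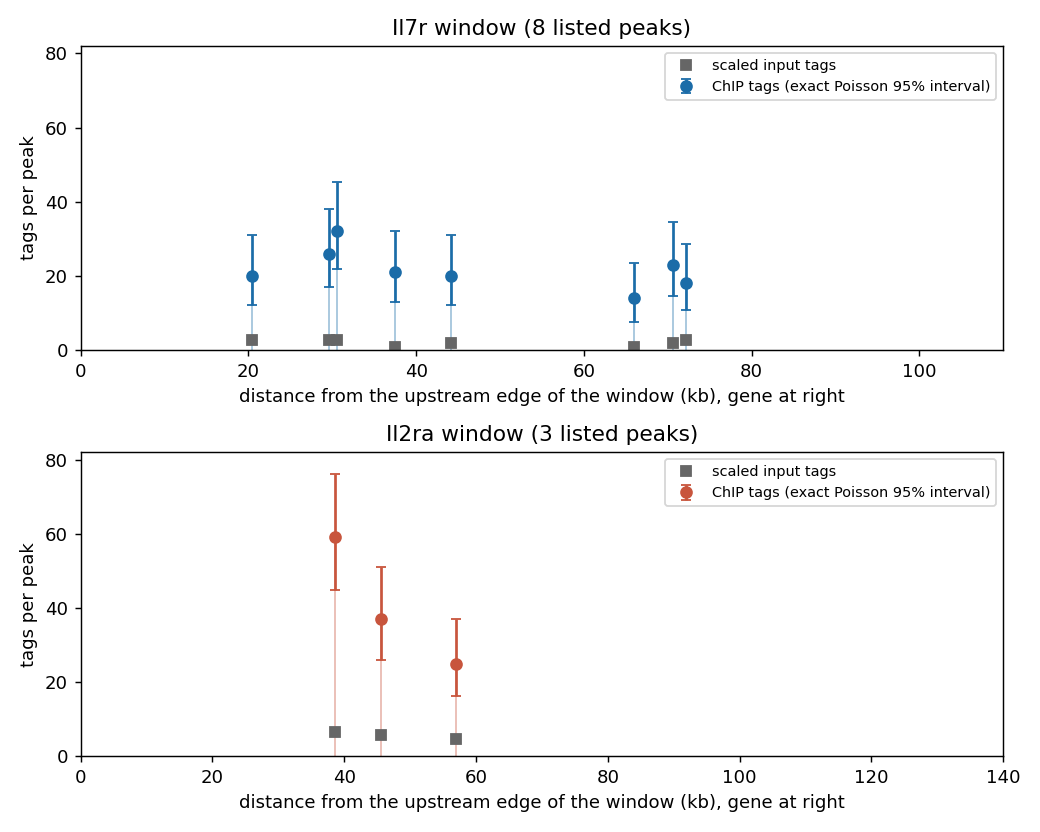
ChIP tags of each listed peak (circles, exact Poisson 95% interval) and scaled input tags (squares) against the distance in kb from the upstream edge of the Il7r and Il2ra windows. The 8 Il7r peaks form groups of 5 and 3 with 14 to 32 tags, and the 3 Il2ra peaks have 59, 37 and 25 tags from the upstream side inwards.

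Around Il2ra, 3 peaks lay within 18.7 kb in the upstream part of the window. Il2ra is read towards higher coordinates, so the upstream edge is the low one. Peak 1, at 11538458 to 11538764 and 38.6 kb from that edge, had 59 tags (interval 44.9 to 76.1), a score of 45 and 6.6 scaled input tags. Only 9 of the 8884 listed peaks, this one included, had at least 59 tags. Peak 2, at 11545410 to 11545716 and 45.6 kb from the edge, had 37 tags (26.0 to 51.0), a score of 29 and 5.7 scaled input tags. Peak 3, at 11556814 to 11557120 and 57.0 kb from the edge, had 25 tags (16.2 to 36.9), a score of 20 and 4.7 scaled input tags. Tags and input both decreased in the order of the peaks from the upstream side. The input values rest on only 7, 6 and 5 input tags, and their differences were not tested. The interval of peak 1 did not overlap that of peak 3, and that of peak 2 overlapped both.

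The midpoints of the Il2ra peaks lay 6952 and 11404 bp apart, so a chain with steps of at most 10 kb joined peaks 1 and 2 and left peak 3 alone. No peak was listed in the 83.0 kb from peak 3 to the downstream edge of the window, the side on which Il2ra lies, and the next listed peak was 1772 kb above peak 3. A site below the caller's threshold of 9 tags, or below 4-fold over input or over its surroundings, is not listed. Where the surroundings hold as many tags as at the Il2ra peaks (given with the local background), the 4-fold filter asks for more than 9 tags. The local background of this stretch itself was not determined. No site that passes these filters was listed there, while weaker binding would go unlisted, so binding is not shown to be missing. In the gene order of GRCm38.p6, Rbm17, a splicing factor gene, is next to Il2ra on the upstream side and Il15ra, the alpha chain gene of the interleukin-15 receptor, on the downstream side. Which of these genes lies nearest to the peaks in mm9 was not determined.

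Outside the windows the nearest peaks were as follows. Below the Il7r window, a pair of peaks lay 26.6 and 27.3 kb beyond the edge with 16 and 20 tags and folds over input of 33.8 and 21.2. The first of these folds rests on the lowest listed input, taken here as no input tag, and is not a ratio of counts. The nearest peak above this window was 270 kb away with 15 tags and a fold of 15.9. Below the Il2ra window, the nearest peak was 47.9 kb beyond the edge with 12 tags and a fold over input of 4.23, fewer tags and a lower fold than any of the 3 peaks inside. The nearest peak above it was 1689 kb away with 29 tags and a fold of 10.2. Widening or narrowing both windows by 20 kb on each side changed neither count.

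The Il7r window was denser in listed peaks, and the Il2ra window had the higher median of tags per peak, 37 against 20.5. Not every Il2ra peak was taller: peak 3, with 25 tags, was below Il7r peaks 6 and 7, with 32 and 26. With 8 peaks in 110 kb (Poisson interval 3.45 to 15.8), the Il7r window had 7.27 peaks per 100 kb. The Il2ra window, with 3 peaks in 140 kb (0.619 to 8.77), had 2.14 per 100 kb. These intervals of the counts overlap and treat peaks as independent, whereas 33.7% of the list had a neighbour within 10 kb. They do not measure the spread of counts between windows. The whole list averaged 0.350 per 100 kb. When all chromosomes were tiled in windows of 110 kb, 18 of 23921 (0.0753%) held at least 8 peaks and 15 held at least the 174 tags of the Il7r peaks (interval 149 to 202). In windows of 140 kb, 1186 of 18798 (6.31%) held at least 3 peaks, and 110 (0.585%) held at least the 121 tags of the Il2ra peaks (100 to 145). The tiled windows lie on a fixed grid that can split a group of peaks, whereas the Il7r and Il2ra windows were placed with the peaks known. These shares are therefore descriptions.

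**Figure D2:**
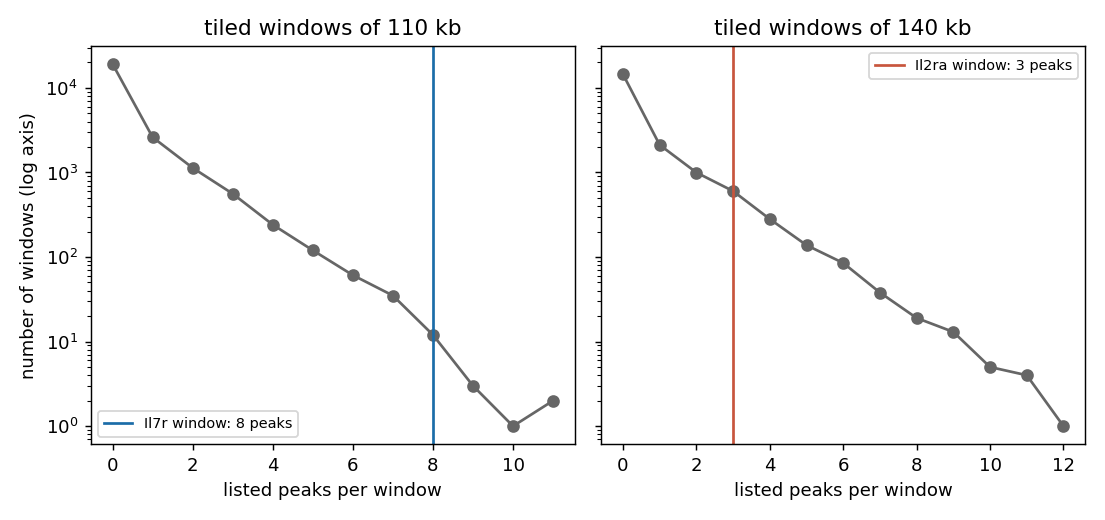
Number of tiled windows (log axis) against the number of listed peaks per window, for windows of 110 kb (left) and 140 kb (right). The vertical lines mark 8 peaks at Il7r, reached by 18 tiled windows, and 3 peaks at Il2ra, reached by 1186.

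The chain of 5 peaks in the Il7r window was among 11 chains of at least 5 peaks in the list, which held 0.653% of its peaks. A neighbour within 10 kb was found for 10 of the 11 peaks, against 33.7% of the list, the exception being peak 3 of Il2ra. At least 20 tags were held by 9 of the 11 peaks, against 26.4% of the list, and tags at or above the median by 10, against 51.3%. None of the 11 had its input at the lowest listed value of 0.5, which 16.8% of the list had. That value was taken here as no input tag, so a fold that rests on it is not a ratio of counts. The windows were proposed for their peaks, and these counts are not evidence about the genes.

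Unlike the tags, enrichment over input was not high against the list: the median fold of the 11 peaks was 9.17, and that of the list 10.6. The list median includes the 16.8% of peaks at the lowest input. For the Il7r peaks the listed fold over scaled input ran from 6.35 at peak 1 to 22.2 at peak 5, with a median of 10.9. For the Il2ra peaks it was 8.92, 6.52 and 5.29, above 42.0%, 26.8% and 10.4% of the list. At least 8-fold enrichment was listed for 6 of 8 Il7r peaks and 1 of 3 Il2ra peaks, together 7 of 11, where 61.5% of the list reached it. These folds rest on 1 to 3 input tags at each Il7r peak and on 7, 6 and 5 at the Il2ra peaks, so the intervals are wide. That of Il7r peak 5 ran from 3.57 to 919 and that of Il2ra peak 1 from 4.07 to 23.1. Over all peaks of a window, the summed fold was 10.2 (interval 6.28 to 17.7) at Il7r and 7.11 (4.31 to 12.4) at Il2ra, with 18 input tags at each, and the intervals overlapped.

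**Figure D3:**
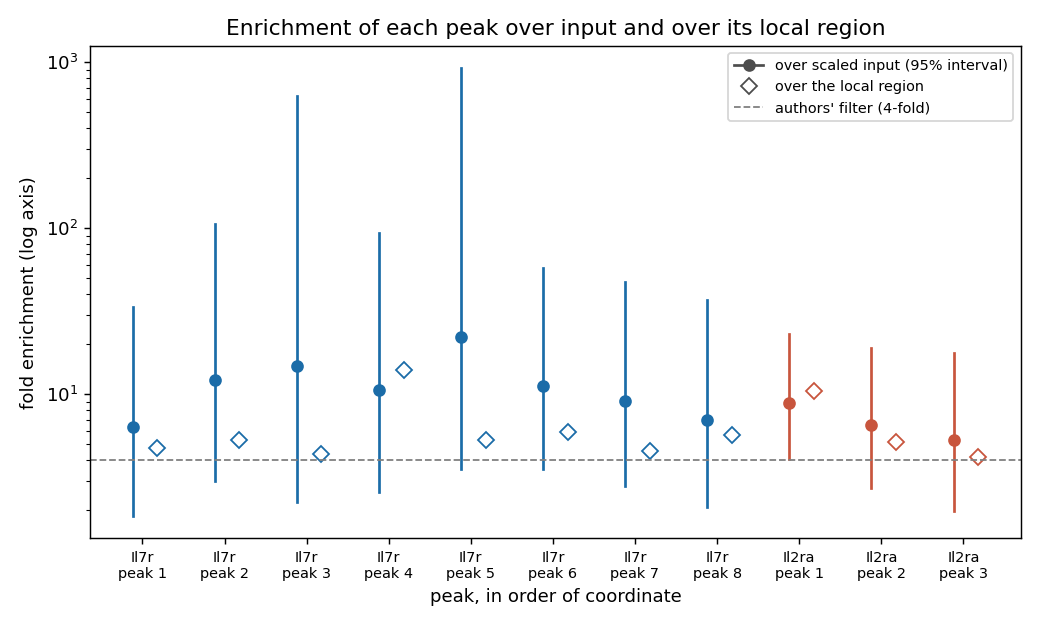
Fold enrichment (log axis) of each peak over scaled input (circles, with 95% intervals from the exact binomial interval of ChIP and input tags) and over its local region (diamonds), in order of coordinate. Over the local region, 9 of the 11 peaks lie below 6-fold, and Il7r peak 4 and Il2ra peak 1 lie at 14.1 and 10.5.

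The input was high under the Il2ra peaks. Their 6.6, 5.7 and 4.7 scaled input tags exceeded those of 99.7%, 98.7% and 96.3% of the list, which had a median of 1.9. Among the 1181 other peaks of 25 to 59 tags, the median input was 2.8 and 16.9% had at least 4.7. At the Il7r peaks input ran from 0.9 to 2.8, and the 4910 other peaks of 14 to 32 tags had a median of 1.9. The ChIP tags of the Il2ra peaks thus stood beside raised input, whose part in them was not tested. Il2ra peak 1 lay above 99.9% of the list by tags minus scaled input and above 42.0% by fold over input.

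The ChIP background around the peaks was high at both genes. The caller's fold over the local region of 10000 bp gives, divided into the tags, the number of tags that the surroundings alone would put into a peak width of 306 bp. This local background was 5.62, 7.13 and 5.97 tags at Il2ra peaks 1 to 3, above 99.0%, 99.7% and 99.2% of the list, whose median was 1.93. Of the other peaks of 25 to 59 tags, 6.94% reached 5.62. At Il7r it was 3.22 to 5.74 at 7 peaks, highest at peaks 6 and 7, and 1.42 at peak 4. Peaks 6 and 7, with 32 and 26 tags, lie in each other's surroundings. Il7r peaks 1 and 3 each had peak 2, with 23 tags, within 5 kb of their midpoints, and peak 2 had both. Il7r peaks 4, 5 and 8 and the 3 Il2ra peaks had no other listed peak within 5 kb of their midpoints. The local background of Il7r peaks 5 and 8 was 3.95 and 3.53. How much listed neighbours add to the local background was not tested. What the raised background contributes to the peak tags was not tested.

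The fold over the local region was accordingly low for most members. It was at least 8-fold for 2 of the 11 peaks, against 47.5% of the list. Il7r peak 4 had 14.1-fold, above 90.5% of the list, and Il2ra peak 1 had 10.5-fold, above 74.7%. The other 9 lay between 4.19 at Il2ra peak 3 and 5.93 at Il7r peak 6, near the authors' filter of 4-fold, where the median of the list was 7.78. The median fold over the local region was 8.53 in the other peaks of 14 to 32 tags. In the other peaks of 25 to 59 tags it was 10.66, and Il2ra peak 1 lay just below this. By this measure 24.2% of the list was below Il7r peak 6, against 95.1% by tags.

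**Figure D4:**
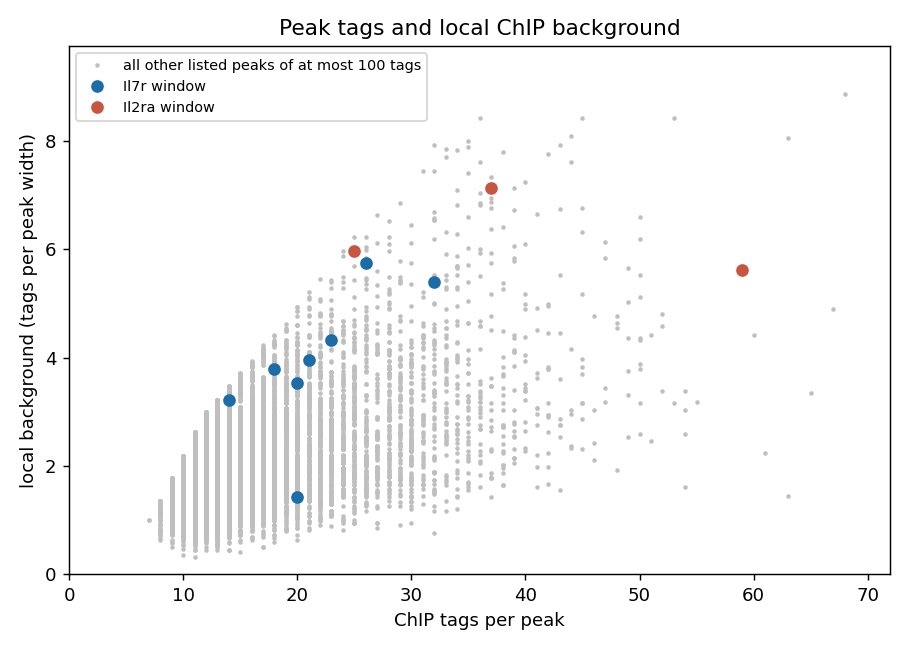
Local ChIP background (tags per peak width) against ChIP tags for the Il7r peaks, the Il2ra peaks and all other listed peaks of at most 100 tags (grey). The local filter of 4-fold admits no peak whose background is above its tags divided by 4. Il7r peak 4 lies low at 1.42, and the other 10 peaks lie at 3.22 to 7.13.

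The caller's score considers at most 1 tag per bp. It ran from 13 to 26 in the Il7r window and was 45, 29 and 20 at the Il2ra peaks, where the threshold was 9. At Il2ra the order by score was that by tags. At Il7r it was not throughout: peak 1, with 18 tags, had a score of 18, and peaks 4 and 8, with 20 tags, had 17. Score per tag was 0.763 to 0.80 at Il2ra, against a median of 0.84 in the other peaks of 25 to 59 tags, and 0.812 to 1.04 at Il7r, against 0.857 in the other peaks of 14 to 32 tags. The caller's clonal value, which compares the tags with the unique positions they should occupy, was 0.83 to 1.04 at Il7r and 1.05 to 1.07 at Il2ra. The median of the list was 0.98, and the list's upper quartile was 1.04.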

How the data were processed

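REV-ERBα ChIP and input DNA of mouse Th17 cells were compared through the peak list of 1 ChIP sample. The labels name CASAVA 1.8.2, Bowtie, HOMER and mm9, per the submitters' processing notes; those notes give no version of Bowtie or HOMER. The authors ran HOMER findPeaks, per the file headers, at a false discovery rate of 0.001, a threshold of 9 tags, and required 4-fold enrichment with a Poisson p of 1.00e-04 both against input and against the local 10000 bp. Total tags are deposited counts without normalization. The normalized tag count and the input tags are signal values, which the authors scaled to 10000000 tags and to the ChIP depth, respectively. The fold values are ratios, the p-values are Poisson values and the score is the caller's peak height, all as deposited by the authors.

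The value of 1 input tag was recovered as 0.945 scaled tags; of 7392 peaks above the lowest input value, 7391 lay within 0.05 of a whole step. Tags carry exact Poisson intervals. Fold intervals come from exact binomial (Clopper-Pearson) intervals of ChIP and input tags. All listed peaks in the windows are described. Windows of equal length were tiled from the first base of each chromosome to its last peak. Python 3.11.15, numpy 2.4.6, pandas 2.3.3, scipy 1.17.1 and matplotlib 3.10.9 were used, and the chain, interval and tiling steps were tested on simulated data. The members, windows and lists were chosen with earlier results of these data known. Alternatives changed the peak threshold, the window edges, the chain distance and the measure of strength. Loci of the other receptor genes were not analysed here, since mm9 annotation was not used.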

Additional observations from a re-analysis of the deposited data

How the results depend on the processing

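Of 40 recomputed values, 29 moved little: counts of peaks, tags and chain members stayed within 1.5 times the reported count, and percentiles stayed within the range that the Poisson interval of the peak's tags gives. So did 4 shares, within their exact binomial intervals, from a tiling grid shifted by 0.5 of a window, an alternative chosen after seeing the data. The other 11 of the 40 moved, and most of the 29 came from settings that added or removed no peak. These were window edges moved by 20 kb either way, any overlap with the window, and at least 1 input tag. Their counts could not change, so they say nothing about stability. A limit of 8-fold over the local region left 1 Il7r peak with 20 tags, against 8 peaks and 174 tags, and 1 Il2ra peak with 59 tags, against 3 peaks and 121 tags. A limit of 8-fold over input left the same number at Il2ra, 1 peak with 59 tags, and thus no chain there (1 peak). With a chain distance of 5 kb the longest chain held 3 peaks at Il7r, against 5, and 1 at Il2ra, against 2. By fold over the local region, 24.2% of the list lay below the Il7r peak with the most tags, against 95.1% by tags, and 74.7% below that of Il2ra, against 99.9%. For the filters and chain distances these changes follow from fewer peaks or shorter links being counted. For the percentiles they follow from dividing the tags by the local background. That background was 5.40 at the Il7r peak and 5.62 at the Il2ra peak, above 98.7% and 99.0% of the list. Why it was raised was not tested. No paired analysis was possible because there was 1 ChIP sample, and no replicate could be left out. At 6390234 tags, sites under the threshold of 9 tags or failing the 4-fold filters are not listed.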
